A study of Mus musculus with 21 samples.

Results

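The genes described here are 10 members of the Wnt pathway and of the primitive streak program, read by symbol in the count files of 21 RNA-seq libraries from mouse embryonic stem cells (mESCs): the ligand gene Wnt3, the TCF factor genes Tcf7, Lef1 and Tcf7l1, the direct Wnt targets Axin2, Sp5 and Cdx1, and the streak genes T, Eomes and Mixl1. They are 10 of 23412 gene symbols in the files and all 10 were among the 14963 genes with enough counts to be tested. All libraries came from v6.5, a male mESC line grown in serum on gelatin, 48 h after transfection with 50 nM siRNA. There were 7 conditions with 3 libraries each. WT siGLO, the common control, was wild-type mESCs with siGLO, a transfection control that targets no gene, and WT siPds5b was the same cells with siRNA to Pds5b. Pds5a-KO siGLO and Pds5b-KO siGLO were knockout lines made by CRISPR-Cas9 editing and transfected with the control. Pds5a-KO siPds5b, Pds5a-KO siStag1 and Pds5a-KO siStag2 were the Pds5a knockout line with a second gene knocked down. PDS5A, PDS5B, STAG1 and STAG2 are accessory subunits of cohesin, the ring-shaped complex that forms chromatin loops. Each knockout was a single clone, so an effect of the clone and an effect of the gene cannot be told apart, and p-values measure the spread between libraries of 1 line.

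Wnt ligands bind Frizzled receptors with LRP co-receptors and stop the destruction complex from degrading β-catenin, which then enters the nucleus and binds TCF/LEF factors on DNA. Without β-catenin these factors mostly repress their targets, and TCF7L1 is the main repressor of this kind in mESCs, whereas TCF7 and LEF1 more often activate. AXIN2 is a scaffold of the destruction complex and a widely used feedback readout of the pathway, SP5 is a zinc-finger factor that limits the response, and CDX1 is a homeobox factor of the posterior embryo. In the embryo WNT3 is needed to form the primitive streak, where the T-box factors T (Brachyury) and EOMES and the homeobox factor MIXL1 direct mesoderm and endoderm formation. mESCs in serum medium are heterogeneous, and streak genes are expressed there at low average levels.

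Promoter windows of the 4 members that hold a TCF/LEF match are shown because these factors are both members of the group and the route by which Wnt signals reach its other members. The windows are RefSeq sequences of build GRCm38.p6, from 250 bases before to 50 bases after an annotated start, printed 5′ to 3′ in the direction of the gene. Capitals mark a match to the core of the TCF/LEF motif, searched in 4 forms on both strands and spelled out below, and no match overlapped another. Of the 10 genes, 8 had a window (12 windows in all). The window of Sp5 is chr2:70474673-70474972 on the plus strand, that of T is chr17:8434173-8434472 on the plus strand, that of Wnt3 is chr11:103773925-103774224 on the plus strand, and the Lef1 window, at the most downstream of its 4 annotated starts, is chr3:131156044-131156343 on the plus strand.
Sp5: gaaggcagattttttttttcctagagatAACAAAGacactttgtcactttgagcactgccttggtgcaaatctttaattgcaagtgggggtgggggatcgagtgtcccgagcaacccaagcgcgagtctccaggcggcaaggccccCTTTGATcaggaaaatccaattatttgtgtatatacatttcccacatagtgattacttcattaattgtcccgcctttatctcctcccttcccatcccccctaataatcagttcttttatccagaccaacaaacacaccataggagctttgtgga
T: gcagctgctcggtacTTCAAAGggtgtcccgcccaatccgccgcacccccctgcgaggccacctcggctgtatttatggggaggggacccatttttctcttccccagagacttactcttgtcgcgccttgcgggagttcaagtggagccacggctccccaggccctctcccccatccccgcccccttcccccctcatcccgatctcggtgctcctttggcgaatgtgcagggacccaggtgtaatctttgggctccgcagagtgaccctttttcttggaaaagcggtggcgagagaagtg
Wnt3: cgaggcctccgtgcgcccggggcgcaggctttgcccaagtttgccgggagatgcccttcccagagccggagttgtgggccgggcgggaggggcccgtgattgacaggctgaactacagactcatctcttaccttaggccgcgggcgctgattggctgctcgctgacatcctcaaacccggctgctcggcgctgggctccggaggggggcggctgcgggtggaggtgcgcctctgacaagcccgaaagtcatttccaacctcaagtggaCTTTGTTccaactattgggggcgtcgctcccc
Lef1: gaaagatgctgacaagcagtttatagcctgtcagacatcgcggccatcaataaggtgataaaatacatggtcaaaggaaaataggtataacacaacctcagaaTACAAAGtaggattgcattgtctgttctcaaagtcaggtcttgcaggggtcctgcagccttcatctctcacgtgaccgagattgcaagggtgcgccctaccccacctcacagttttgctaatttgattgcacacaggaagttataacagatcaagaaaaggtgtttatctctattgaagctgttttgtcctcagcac
At least 1 of the 4 motifs was found in 4 of the 12 windows and in 16.9% of all 32851 windows. The Sp5 window held CTTTGAT, which 3.73% of all windows held, 104 bases before the start, and CTTTGTT, which 5.85% held, 222 bases before it on the opposite strand. The T window held CTTTGAA (5.14% of all windows) 235 bases before the start on the opposite strand. The Wnt3 window held CTTTGTT 18 bases after the start. The Lef1 window held CTTTGTA (3.63% of all windows) 147 bases before that start on the opposite strand. A match of letters is a description of the sequence and not a measured binding site.

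Library totals were between 17311090 and 23989198 counts, with a median of 19628146, and replicate libraries of a condition differed by more than counting noise. Pds5b was at 12.4% of WT siGLO in Pds5b-KO siGLO, and Pds5b, Stag1 and Stag2 were at 23.7% to 38.2% of the siGLO control of the same line after their siRNA. The Pds5a count stayed at 84.4% of WT siGLO in the Pds5a knockout, so it does not check that label, and reads over the edited exon were not examined. All 10 mESC markers were above 10 counts in every library, with a summed level of 113481 to 126695 normalized counts in WT mESCs and 64419 to 102821 in the knockout lines. Summed trophoblast markers were at 3383 to 3728 in WT mESCs, 5519.6 to 9782 in Pds5b-KO and 9152 to 34289 in the Pds5a-KO conditions, most of it Krt8 and Krt18, with Elf5 at 0 to 5.81, and the part of these shifts in the results below was not tested. In Pds5a-KO siStag2 replicate 3 the ribosomal RNA gene Rn45s took 2.68% of counts, more than any gene did in another library. Levels below are normalized counts, that is, each library's counts rescaled with TMM factors to the mean library size. Conditions were compared with the quasi-likelihood test of edgeR, fitted once to the 21 libraries. Genes were called at a Benjamini-Hochberg adjusted p under 0.01, taken over the 14963 tested genes.

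In WT siGLO mESCs all members were transcribed, at levels that differed widely. Per kilobase of annotated exon, Tcf7 was highest at 391 ± 34.1 normalized counts (SD, n = 3) and Tcf7l1 second at 165 ± 4.68. T followed at 145 ± 105, Eomes at 121 ± 32.6 and Cdx1 at 117 ± 49.2 per kilobase, and the libraries of these 3 overlapped. The libraries of T also spanned those of Tcf7l1, which ran from 161 to 170. Axin2 (87.0), Wnt3 (86.1), Sp5 (54.4) and Lef1 (41.2) had lower means per kilobase, but their libraries overlapped those of T, which ran from 32.3 to 240. Mixl1 was lowest at 9.71 ± 1.84, from 10 to 36 raw counts per library over the whole series. The lengths come from GENCODE vM21 and the annotation used for counting is not given in the sources used here, so these ratios are approximate. Antisense genes share 13.75% of the exon bases of Lef1, 4.56% of Tcf7l1, 3.8% of Axin2 and 2.84% of Eomes, and without a stated use of strand their reads cannot be told apart from those of the member.

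**Figure D1:**
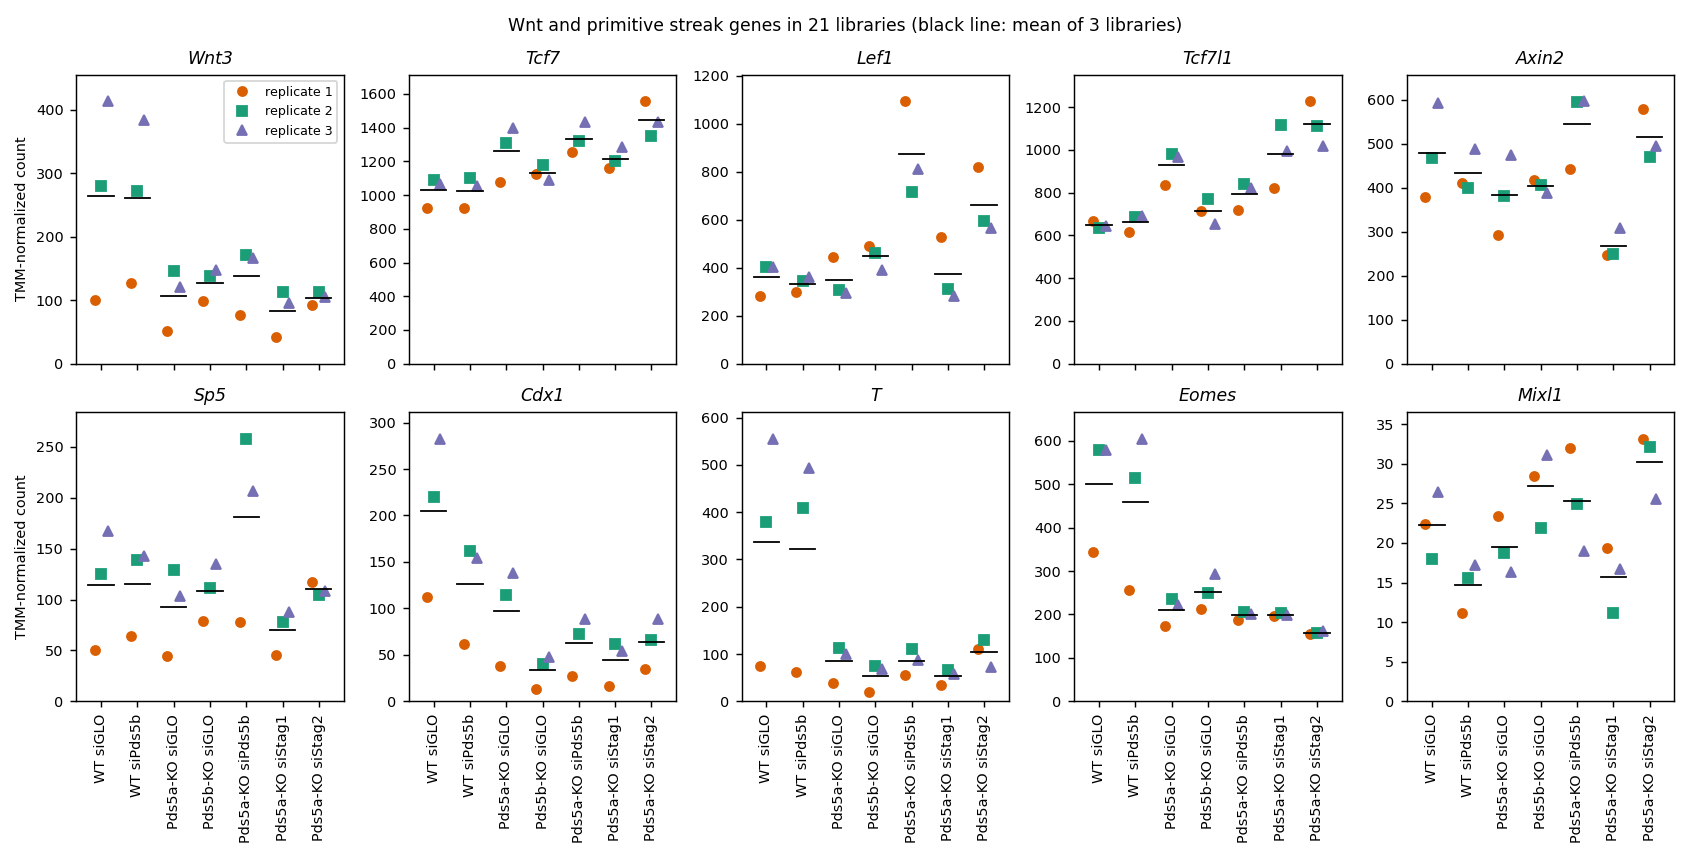
TMM-normalized counts of the 10 genes (vertical axes, linear, from 0) in the 7 conditions, with 1 point per library marked by replicate number and a black line at the mean of 3 libraries. The mean of Eomes is lower in the 5 conditions with a knockout than in both WT conditions, Lef1 is highest in Pds5a-KO siPds5b, and the replicate 1 libraries (orange circles) lie lowest for Wnt3, Cdx1 and, in 6 conditions, Sp5 and T.

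Against WT siGLO, Eomes was called lower in all 5 conditions with a knockout and Tcf7l1 higher in 3 of the 4 Pds5a-KO conditions. Lef1 was called higher than in WT siGLO in Pds5a-KO siPds5b and Pds5a-KO siStag2. The Lef1 call for siStag2 held in 1 of 6 fits with a library left out. Against Pds5a-KO siGLO, Lef1 was called for siPds5b but not for siStag2 (adjusted p = 0.0233 from edgeR). In Pds5a-KO siGLO, 2 of the 10 members were called against WT siGLO, Tcf7l1 higher and Eomes lower, where 17.8% of all tested genes were called. In Pds5b-KO siGLO, 2 were called, Cdx1 and Eomes, both lower, against a background of 18.2%. In WT siPds5b none was called, with 0.00668% of all genes called in that comparison. No member reached an unadjusted p under 0.05 there, as 4.22% of all genes did, and none was called with the replicate number as a block (0.0200% of all genes) or by DESeq2 (0.0267% of all genes). After dual depletion in Pds5a-KO siPds5b, 3 were called, Lef1 and Tcf7 higher and Eomes lower, with a background of 32.0%. In Pds5a-KO siStag1, 3 were called, Tcf7l1 higher and Axin2 and Eomes lower, with 20.0% of all genes called. In Pds5a-KO siStag2, 4 were called, Lef1, Tcf7 and Tcf7l1 higher and Eomes lower, with 30.1% of all genes called. In this fit the members' shares lie near the background in each comparison and are no result about the group as a whole. The shares under the replicate block and without the replicate 1 libraries, given with their own backgrounds below, were higher in the 5 knockout conditions. Leaving out replicate 1 was chosen after seeing the members' own pattern. Of these 5 comparisons, the replicate numbers pair the libraries only in Pds5b-KO siGLO against WT siGLO. There the block called 4 of the 10, beside 22.2% of all genes. DESeq2 called 6 of the 10 in Pds5a-KO siStag1, beside 22.7% of all genes. The members were chosen with earlier results of these data known, so none of these higher shares is a result about the group either. The 6 comparisons share the WT siGLO libraries. The median log2 fold change of the members was -0.31 in Pds5a-KO siGLO, -0.16 in Pds5b-KO siGLO (-0.41 without WT siGLO replicate 1 and 0.047 without WT siGLO replicate 3), -0.093 in WT siPds5b, 0.18 in Pds5a-KO siPds5b, -0.77 in Pds5a-KO siStag1 and 0.025 in Pds5a-KO siStag2. The medians of all tested genes, in the same order, were 0.0021, -0.0029, 0.0017, -0.0013, 0.0012 and -0.0026. With other scaling or a library left out, the members' median also changed sign in WT siPds5b (-0.351 to 0.0791) and Pds5a-KO siStag2 (-0.229 to 0.315).

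**Figure D2:**
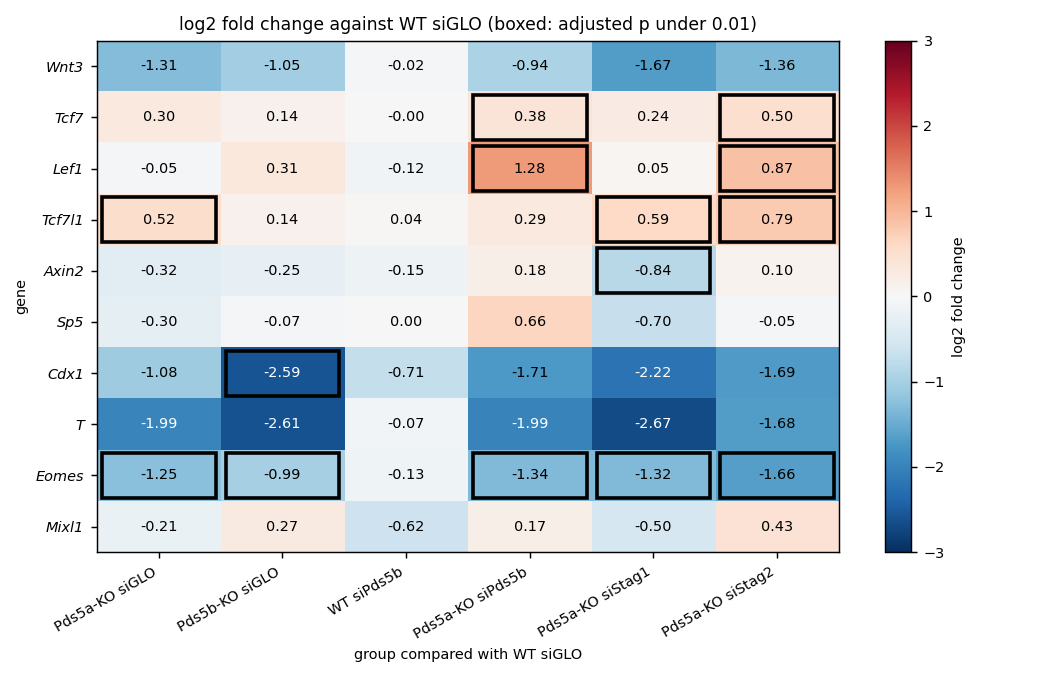
Fitted log2 fold change (colour scale and printed values) of the 10 genes (rows) in each condition against WT siGLO (columns), with a box where the adjusted p was under 0.01. Eomes is boxed in all 5 columns with a knockout, while the larger decreases of T and Cdx1 are boxed only for Cdx1 in Pds5b-KO siGLO, and the WT siPds5b column has no box.

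Eomes, a T-box factor that starts definitive endoderm and mesoderm formation in the streak, lies at chr9:118478212-118486132 on mm10. In the order of replicates 1, 2 and 3, used throughout, WT siGLO libraries had 345, 579 and 579.7 normalized counts of Eomes, and WT siPds5b libraries had 256, 513 and 605. Pds5a-KO siGLO libraries had 174, 237 and 221 and Pds5b-KO siGLO libraries had 213, 250.2 and 293. Every knockout library was below every WT siGLO library, whereas the WT siPds5b libraries overlapped the control. The log2 fold change of Eomes was -1.25 in Pds5a-KO siGLO (standard error, SE, 0.23, edgeR adjusted p = 0.000507) and -0.99 in Pds5b-KO siGLO (SE 0.23, edgeR adjusted p = 0.00329). In Pds5b-KO siGLO the call was lost without WT siGLO replicate 2 (adjusted p = 0.0171), WT siGLO replicate 3 (0.0188), Pds5b-KO siGLO replicate 1 (0.0223) or Pds5b-KO siGLO replicate 2 (0.0145), all from edgeR. In bulk libraries, fewer cells that express Eomes and less Eomes RNA per cell cannot be told apart.

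Eomes stayed below WT siGLO when a second gene was knocked down in Pds5a-KO mESCs. Pds5a-KO siPds5b libraries had 188, 206 and 200.3 normalized counts, Pds5a-KO siStag1 libraries had 197, 204 and 199 and Pds5a-KO siStag2 libraries had 154, 157 and 162. Against WT siGLO the log2 fold changes of Eomes were -1.34, -1.32 and -1.66 (adjusted p = 0.000131, 0.000253 and 2.02e-05 from edgeR). Against Pds5a-KO siGLO they were -0.088, -0.075 and -0.41, with 95% intervals of -0.59 to 0.42, -0.58 to 0.43 and -0.93 to 0.10, and none was called. The siStag2 libraries lay below all Pds5a-KO siGLO libraries, and the other knockdowns overlapped them. By mean level the order was WT siGLO, WT siPds5b, Pds5b-KO siGLO, Pds5a-KO siGLO, Pds5a-KO siStag1, Pds5a-KO siPds5b and Pds5a-KO siStag2, and libraries of neighbours in this order overlapped except at the last step.

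T (Brachyury), the T-box factor that marks the streak and nascent mesoderm, lies at chr17:8434423-8442496. WT siGLO libraries had 74.8, 378 and 556 normalized counts of T and WT siPds5b libraries had 63.2, 409 and 492. Pds5a-KO siGLO libraries had 38.6, 113 and 101, and Pds5b-KO siGLO libraries had 20.1, 74.8 and 68.9. Replicate 1 was far below replicates 2 and 3 in both WT conditions, and WT siGLO replicate 1 lay within the range of the Pds5a-KO libraries and level with the highest Pds5b-KO library. The log2 fold changes of T were -1.99 (SE 0.74, edgeR adjusted p = 0.0575) and -2.61 (SE 0.77, edgeR adjusted p = 0.0194), and neither was called. With the replicate number as a block, since same-numbered Pds5b-KO siGLO and WT siGLO libraries deviated together, T was called in Pds5b-KO siGLO (log2 fold change -2.51, adjusted p = 0.00224 from edgeR), and with DESeq2 the adjusted p was 0.00218. Without WT siGLO replicate 1 it was 0.00485 from edgeR.

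With a second knockdown in Pds5a-KO mESCs the T counts were 55.9, 111 and 87.7 for siPds5b, 34.9, 66.7 and 57.0 for siStag1 and 111, 131 and 73.6 for siStag2. Only in Pds5a-KO siStag2 was replicate 1 not the lowest library for T. Against WT siGLO the log2 fold changes of T were -1.99, -2.67 and -1.68 (adjusted p = 0.0393, 0.0171 and 0.0752 from edgeR), none of them called. Without WT siGLO replicate 1 the siPds5b and siStag1 conditions passed (adjusted p = 0.0086 and 0.00384 from edgeR). With DESeq2 on all libraries the siStag1 condition passed as well (adjusted p = 0.00153). Against Pds5a-KO siGLO the 95% intervals of the log2 fold change of T were -1.68 to 1.67, -2.46 to 1.09 and -1.35 to 1.97, and all of them include 0.

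Mixl1, a homeobox factor of the streak, lies at chr1:180693043-180697034 and was the lowest member in every condition. Its condition means ran from 14.7 ± 3.11 normalized counts in WT siPds5b to 30.3 ± 4.13 in Pds5a-KO siStag2 (SD, n = 3 each), with 22.3 ± 4.22 in WT siGLO. No comparison called it. Pds5a-KO siStag2 lay above Pds5a-KO siStag1, with 33.2, 32.1 and 25.5 against 19.4, 11.1 and 16.7 counts, no overlap, and a log2 fold change of 0.93 (95% interval 0.30 to 1.56, adjusted p = 0.0937 from edgeR).

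Wnt3, the ligand whose loss prevents streak formation in the mouse embryo, lies at chr11:103774150-103817957. WT siGLO libraries had 101, 279 and 414 normalized counts and WT siPds5b libraries had 127, 272 and 385. Pds5a-KO siGLO libraries had 51.8, 146 and 121 and Pds5b-KO siGLO libraries 98.2, 138 and 148. As for T, the replicate 1 libraries of WT mESCs lay within the range of the knockout libraries and the other WT libraries above it. The log2 fold changes of Wnt3 were -1.31 (SE 0.52, edgeR adjusted p = 0.0772) and -1.05 (SE 0.52, edgeR adjusted p = 0.136), not called. With the replicate block Wnt3 was called in Pds5b-KO siGLO (log2 fold change -0.94, adjusted p = 0.00378 from edgeR). The block also called Wnt3 in Pds5a-KO siGLO (log2 fold change -1.26, adjusted p = 0.000309 from edgeR). There the replicate numbers missed the pairing rule given further below, with a lowest same-numbered correlation of 0.0592, against 0.102 for Pds5b-KO siGLO. With the block 4 of the 10 members, T, Wnt3, Cdx1 and Eomes, were called in Pds5b-KO siGLO, where 22.2% of all tested genes were called in that fit.

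In the Pds5a-KO conditions with a second knockdown, Wnt3 means were 138 ± 53.7 normalized counts with siPds5b, 83.8 ± 36.8 with siStag1 and 103 ± 9.94 with siStag2 (SD, n = 3 each). Their log2 fold changes against WT siGLO were -0.94, -1.67 and -1.36 (adjusted p = 0.151, 0.0283 and 0.0503 from edgeR), and none was called. Wnt3 passed in Pds5a-KO siStag1 without WT siGLO replicate 1 (adjusted p = 0.00575 from edgeR) and with DESeq2 on all libraries (adjusted p = 0.00858). Against Pds5a-KO siGLO the log2 fold changes of Wnt3 were 0.36, -0.36 and -0.049, with 95% intervals of -0.79 to 1.52, -1.56 to 0.84 and -1.23 to 1.13.

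Cdx1, a direct Wnt and retinoic acid target that patterns the posterior embryo, had 113, 219.7 and 283 normalized counts in WT siGLO libraries and 62.1, 162 and 154 in WT siPds5b libraries. Pds5b-KO siGLO libraries had 13.7, 39.9 and 47.6, all below the lowest WT siGLO library. Cdx1 fell in Pds5b-KO siGLO, with a log2 fold change of -2.59 (SE 0.63, edgeR adjusted p = 0.006, and 9.23e-11 with the replicate block). The unblocked call was lost without WT siGLO replicate 2 (adjusted p = 0.0163), WT siGLO replicate 3 (0.0252), or any one of Pds5b-KO siGLO replicates 1, 2 and 3 (0.0298, 0.02 and 0.0113), all from edgeR. Pds5a-KO siGLO libraries had 38.6, 114 and 138, which overlapped WT siGLO, and the log2 fold change of -1.08 was not called (adjusted p = 0.175 from edgeR). With the replicate block, although the numbers missed the pairing rule in this comparison, Cdx1 was called there too (-1.14, adjusted p = 7.07e-06 from edgeR). The difference between the knockouts, 1.51 for Pds5a-KO over Pds5b-KO, was not called in the unblocked fit (95% interval 0.13 to 2.89, adjusted p = 0.0869 from edgeR). It was called in 2 of 14 alternative fits.

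Cdx1 was also low with each second knockdown, at 27.5, 72.6 and 88.7 normalized counts with siPds5b, 16.5, 62.2 and 54.1 with siStag1 and 35.1, 66.5 and 88.9 with siStag2. Every one of these libraries was below every WT siGLO library, at log2 fold changes of -1.71, -2.22 and -1.69 (adjusted p = 0.0262, 0.0116 and 0.0297 from edgeR), which missed the threshold. Without WT siGLO replicate 1 the siStag1 condition passed (adjusted p = 0.00821 from edgeR). It also passed with at least 10 counts in every library (adjusted p = 0.00951 from edgeR) and with DESeq2 (adjusted p = 0.00277). Against Pds5a-KO siGLO, siStag1 gave a log2 fold change of -1.15 that was not called (adjusted p = 0.551 from edgeR) but was called with the replicate block, where the libraries pair (adjusted p = 0.00283 from edgeR).

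Axin2, the feedback scaffold of the destruction complex, lies at chr11:108920349-108950783. WT siGLO libraries had 379, 466 and 591 normalized counts and Pds5a-KO siGLO libraries 292, 382 and 474, which overlapped (log2 fold change -0.32, adjusted p = 0.155 from edgeR). Pds5b-KO siGLO libraries had 417, 406 and 387 and were not called (log2 fold change -0.25, adjusted p = 0.262 from edgeR). With siStag1 in Pds5a-KO mESCs, Axin2 fell to 246, 249 and 309, all below the WT siGLO libraries, at a log2 fold change of -0.84 (SE 0.17, edgeR adjusted p = 0.000648). With siStag2 it was at 579, 470.1 and 494 and with siPds5b at 442, 595 and 597, both overlapping WT siGLO. The order of the means, from 545 ± 88.8 in Pds5a-KO siPds5b through 514 ± 57.2 in Pds5a-KO siStag2, 479 ± 107 in WT siGLO, 432 ± 48.3 in WT siPds5b, 403 ± 15.0 in Pds5b-KO siGLO and 382 ± 91.3 in Pds5a-KO siGLO to 268 ± 35.4 in Pds5a-KO siStag1 (SD, n = 3 each), had overlapping neighbours at each step.

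Sp5, a direct target that feeds back on the Wnt response, lies at chr2:70474923-70477729, and its promoter window is the one with 2 TCF/LEF matches. WT siGLO libraries had 50.7, 125 and 167 normalized counts, Pds5a-KO siGLO libraries 44.7, 129 and 103 and Pds5b-KO siGLO libraries 79.2, 112 and 135. Pds5a-KO siPds5b libraries had 78.1, 258 and 206, the highest mean of the 7 conditions, and Pds5a-KO siStag1 libraries 45.5, 77.8 and 87.5, the lowest mean. Replicate 1 spread these groups over each other, and no comparison called Sp5. The log2 fold change in Pds5a-KO siPds5b against Pds5a-KO siGLO was 0.96 (95% interval -0.060 to 1.97, adjusted p = 0.198 from edgeR, and 0.0123 with the replicate block). Without all replicate 1 libraries, an alternative chosen after seeing the data and described further below, Sp5 was called in that comparison (log2 fold change 1.00, adjusted p = 0.00068 from edgeR). In the same setting Sp5 was also called higher in Pds5a-KO siPds5b than in Pds5a-KO siStag2 (1.13, adjusted p = 0.000643 from edgeR), higher in Pds5a-KO siPds5b than in WT siGLO (0.66, adjusted p = 0.00534 from edgeR) and lower in Pds5a-KO siStag1 than in WT siGLO (-0.83, adjusted p = 0.00294 from edgeR).

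Among the TCF factor genes, Tcf7l1 rose with loss of PDS5A but was not called with loss of PDS5B. Tcf7l1 encodes the main TCF repressor of mESCs and lies at chr6:72626378-72789254. WT siGLO libraries had 669, 633 and 643 normalized counts, with little spread. Pds5a-KO siGLO libraries had 838, 981 and 968, all above the control, at a log2 fold change of 0.52 (SE 0.10, edgeR adjusted p = 0.000512). Pds5b-KO siGLO libraries had 713, 772 and 654 and overlapped the control (log2 fold change 0.14, adjusted p = 0.328 from edgeR). In the direct comparison of Pds5a-KO with Pds5b-KO, Tcf7l1 was the 1 member called, where 19.2% of all genes were called, with a log2 fold change of 0.38 (SE 0.10, edgeR adjusted p = 0.00634). That call was lost without Pds5a-KO siGLO replicate 2 (adjusted p = 0.0357) or 3 (0.0316), without Pds5b-KO siGLO replicate 1 (0.0218) or 3 (0.0436), with library-size scaling (0.0116) and in a model of those conditions alone (0.019), all from edgeR.

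With a second knockdown Tcf7l1 was at 720.1, 841 and 822 normalized counts for siPds5b, 823, 1117 and 997 for siStag1 and 1229.8, 1112 and 1019 for siStag2. All of these libraries were above the WT siGLO libraries. The rise was called for siStag1 and siStag2, at log2 fold changes of 0.59 and 0.79 (adjusted p = 0.0001 and 1.80e-06 from edgeR), and was 0.29 for siPds5b (adjusted p = 0.024 from edgeR), which missed the threshold. Tcf7l1 was lower in Pds5a-KO siPds5b than in Pds5a-KO siStag2, with a log2 difference of -0.50 (SE 0.10, edgeR adjusted p = 0.00282) and no overlap, and was the 1 member called there, where 3.96% of all genes were called. The call was lost without Pds5a-KO siPds5b replicate 1 (adjusted p = 0.0233), without Pds5a-KO siStag2 replicate 1 (0.026), and in a model of those conditions alone (0.0132), all from edgeR.

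Tcf7, a TCF factor that activates targets with β-catenin, lies at chr11:52252371-52283014. Its WT siGLO libraries had 925, 1089 and 1068 normalized counts, and those of Pds5a-KO siGLO 1078, 1308 and 1400.5, a log2 fold change of 0.30 that missed the threshold (adjusted p = 0.0183 from edgeR) and passed it without Pds5a-KO siGLO replicate 1 (0.00218 from edgeR). Tcf7 rose in Pds5a-KO siPds5b to 1253, 1317 and 1434 (log2 fold change 0.38, SE 0.09, edgeR adjusted p = 0.00197) and in Pds5a-KO siStag2 to 1559, 1348 and 1436 (log2 fold change 0.50, SE 0.09, edgeR adjusted p = 0.000166). Both conditions lay above all WT siGLO libraries. The first of these calls was lost without WT siGLO replicate 1 (adjusted p = 0.0195 from edgeR) or Pds5a-KO siPds5b replicate 3 (0.0151 from edgeR). Pds5b-KO siGLO libraries, at 1123, 1179 and 1092, lay just above the control (log2 fold change 0.14, adjusted p = 0.263 from edgeR).

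Lef1, the TCF/LEF factor that is itself a Wnt target, lies at chr3:131110471-131224356 and had the largest increase among the members. WT siGLO libraries had 281, 402 and 403 normalized counts, WT siPds5b libraries 299, 343 and 360.5 and Pds5a-KO siGLO libraries 446, 306 and 293, which overlapped. In Pds5a-KO siPds5b, Lef1 rose to 1096, 714 and 812, with every library above every library of those 3 conditions. The log2 fold change was 1.28 against WT siGLO (SE 0.23, edgeR adjusted p = 0.000269) and 1.33 against Pds5a-KO siGLO (SE 0.23, edgeR adjusted p = 0.000857). Pds5a-KO siStag2 libraries had 818, 596 and 565, higher than WT siGLO by 0.87 on the log2 scale (SE 0.23, edgeR adjusted p = 0.00642). This call was lost without any one of WT siGLO replicates 1, 2 and 3 (adjusted p = 0.0364, 0.0127 and 0.0127) or Pds5a-KO siStag2 replicates 1 and 2 (0.0456 and 0.0107), and with no filter on low counts (0.0148), all from edgeR. Pds5a-KO siStag1 libraries, at 528, 313 and 282, and Pds5b-KO siGLO libraries, at 489, 461 and 392, were not called against WT siGLO (adjusted p = 0.889 and 0.344 from edgeR). In contrast to T and Wnt3, replicate 1 was the highest library for Lef1 in all 5 knockout conditions.

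Comparing each second knockdown with Pds5a-KO siGLO asks what loss of a further cohesin subunit adds. For siPds5b, 1 of the 10 members was called, Lef1, where 7.59% of all genes were called. Axin2 was higher in each same-numbered pair, at a log2 fold change of 0.51 (95% interval 0.16 to 0.85, adjusted p = 0.04 from edgeR), and passed with the replicate block (adjusted p = 0.00834 from edgeR), which made 2 members called against 10.5% of all genes, and without Pds5a-KO siGLO replicate 3 (0.00891 from edgeR). For siStag1 none of the 10 was called, with 0.0936% of all genes called. Only Axin2 had an unadjusted p under 0.05, as 10.7% of all genes did, at a log2 fold change of -0.51 (adjusted p = 0.225 from edgeR), DESeq2 called no member (0.599% of all genes), and with the replicate block 1 member, Cdx1, was called (0.321% of all genes). For siStag2 none was called, with 2.24% of all genes called, while 5 members had an unadjusted p under 0.05, as did 25.3% of all genes. Lef1 came nearest, at a log2 fold change of 0.92 (95% interval 0.43 to 1.42, adjusted p = 0.0233 from edgeR), and was the 1 member called with the replicate block (adjusted p = 0.0084 from edgeR, 4.52% of all genes called) and with DESeq2 (adjusted p = 0.00687, 6.09% of all genes called).

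**Figure D3:**
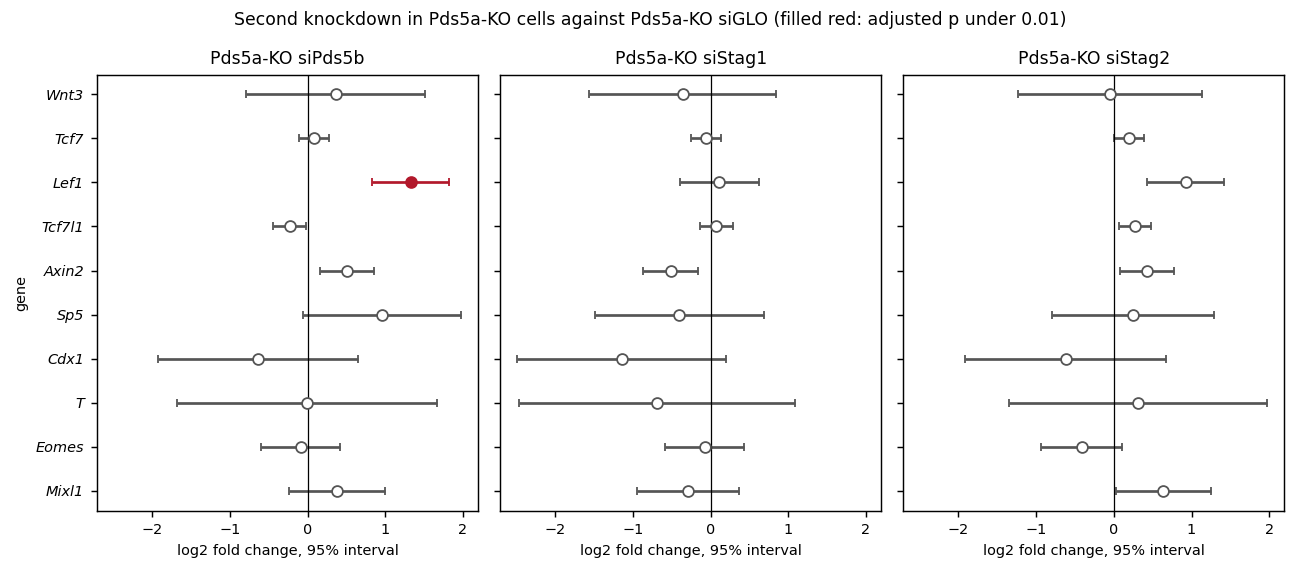
Fitted log2 fold change with its 95% interval (horizontal axes) of the 10 genes for siPds5b, siStag1 and siStag2 in Pds5a-KO mESCs against Pds5a-KO siGLO, filled red where the adjusted p was under 0.01. The Lef1 point for siPds5b, at 1.33, is the only filled one, and the intervals of T and Cdx1 reach more than 1 log2 unit to each side of their estimates.

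The siStag2 and siStag1 conditions differed in 1 member, Axin2, where 0.394% of all genes were called. Axin2 was higher with siStag2, at 579, 470.1 and 494 against 246, 249 and 309 normalized counts with no overlap, a log2 difference of 0.94 (SE 0.17, edgeR adjusted p = 0.00696). The call was lost whichever library was left out, with adjusted p of 0.0488, 0.0404 and 0.0115 without Pds5a-KO siStag1 replicates 1, 2 and 3, and 0.0403, 0.0142 and 0.022 without Pds5a-KO siStag2 replicates 1, 2 and 3, from edgeR. Lef1 (0.82, adjusted p = 0.0712 from edgeR) did not pass, although its libraries did not overlap either. Whether the effect of siPds5b differed between Pds5a-KO and WT mESCs was tested as an interaction, which called none of the members, with 1.48% of all genes called. At an unadjusted p under 0.05 there were 3, Axin2, Lef1 and Mixl1, where 17.3% of all genes passed, and DESeq2 called Lef1 (adjusted p = 0.00352, 2.93% of all genes called). The interaction of Lef1 was 1.45 on the log2 scale (95% interval 0.74 to 2.16, adjusted p = 0.0208 from edgeR), with log2 fold changes for siPds5b of 1.33 in Pds5a-KO and -0.12 in WT mESCs.

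Cdx1, Wnt3, Eomes, T and Sp5 shared a pattern among libraries. Replicate 1 was the lowest of its condition in all 7 conditions for Cdx1, Wnt3 and Eomes, in 6 for T and Sp5, in 5 for Tcf7, in 4 for Axin2 and Tcf7l1, in 2 for Lef1 and in 1 for Mixl1. Of all tested genes, 1.32% had replicate 1 lowest in 7 conditions and 4.50% in 6. The mean of replicates 2 and 3 was 2.21 to 3.53 times replicate 1 for Cdx1, 1.17 to 3.45 times for Wnt3 and 0.918 to 7.13 times for T. The SD of log2 CPM within conditions was 1.02 for T and 0.839 for Cdx1, at or above 99.9% and 99.5% of tested genes, against a median of 0.162 over all genes. Tcf7 (0.120) and Tcf7l1 (0.132) were below that median. The deviations from the condition mean had Pearson r of 0.95 for Sp5 with Wnt3, 0.92 for T with Eomes, 0.89 for T with Wnt3 and 0.88 for Cdx1 with Wnt3 over 21 libraries, points that share their conditions and replicate numbers. Deviations of Lef1 and Cdx1 had r of -0.57.

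Markers of other cell types moved with the replicate number as well. Summed endoderm markers in replicates 1, 2 and 3 were at 1262, 761 and 762 normalized counts in WT siGLO and 1694, 850.2 and 783 in Pds5a-KO siGLO, and were highest in replicate 1 in every condition except Pds5a-KO siStag2, where they were at 745, 713 and 756. All 6 endoderm markers had counts in every library, the lowest being Foxa2 with 6 to 56 counts. Summed trophoblast markers were lowest in replicate 1 in the 5 knockout conditions, at 12486, 34289 and 33308 in Pds5a-KO siGLO, but not in WT mESCs. Summed fibroblast markers were lowest in replicate 1 in 6 of the 7 conditions, at 5929, 7099 and 8053 in WT siGLO. They were at 5929 to 9638 in WT mESCs against 1890.3 to 4534 in the knockout lines. Most of this sum was Vim, with a mean of 5828 in WT siGLO and 2351 in Pds5a-KO siGLO. By mean, Col1a1 and Col1a2 were also below WT siGLO in every knockout condition, while Col3a1, Thy1 and Dcn moved in both directions. Whether the sums reflect such cells, and their part in the pattern and in the differences from WT mESCs, was not tested. Without the replicate 1 libraries, an alternative chosen after seeing this pattern that leaves 2 libraries a condition, T, Cdx1, Wnt3 and Eomes were called lower in each of the 5 knockout conditions against WT siGLO. In that setting 7 of the 10 members were called in Pds5a-KO siGLO against 19.2% of all genes, 4 in Pds5b-KO siGLO against 16.1%, 8 in Pds5a-KO siPds5b against 31.8%, 8 in Pds5a-KO siStag1 against 19.7% and 7 in Pds5a-KO siStag2 against 25.0%. Those shares are above the background, in a setting that was picked for the members' own pattern. For Pds5a-KO siGLO the log2 fold changes were then -2.13 for T, -1.01 for Cdx1 and -1.39 for Wnt3 (adjusted p = 1.65e-07, 0.000246 and 6.80e-06 from edgeR), and for Pds5b-KO siGLO they were -2.71, -2.52 and -1.29 (adjusted p = 1.85e-08, 8.55e-09 and 2.28e-05 from edgeR). Lef1 was called lower in Pds5a-KO siGLO (-0.43, adjusted p = 0.00722 from edgeR) and Pds5a-KO siStag1 (-0.44, adjusted p = 0.00662 from edgeR) in that setting. In WT siPds5b no member was called without the replicate 1 libraries either, where 0.0401% of all genes were.

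**Figure D4:**
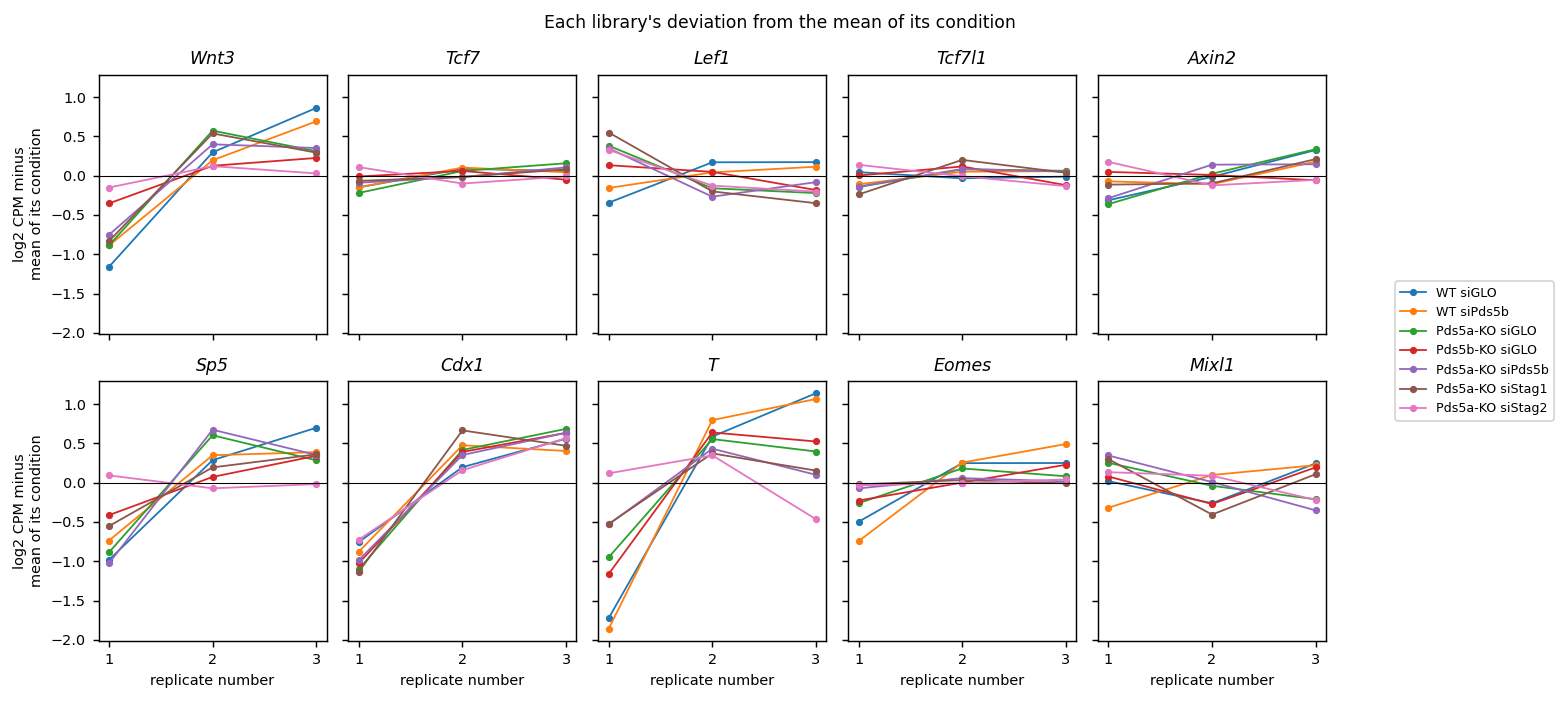
Deviation of each library's log2 CPM from the mean of its condition (vertical axes) by replicate number (horizontal axes), with 1 line per condition. For Wnt3, Cdx1, Sp5 and T nearly all lines start below 0 at replicate 1, furthest for T in WT mESCs, while the Lef1 lines of the knockout conditions start above 0 and the Pds5a-KO siStag2 lines (pink) are flatter for Wnt3 and Sp5.

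The rest of the pathway was read from 6 lists of 114 genes, of which 102 were tested. The lists were chosen with earlier results of these data known. Called shares above those of all genes, here and for each list below, are therefore descriptions and no test of the pathway. In Pds5a-KO siGLO 33 of the 102 were called against WT siGLO (20 higher and 13 lower, 32.4% against 17.8% of all genes), and in Pds5b-KO siGLO 23 (17 higher and 6 lower, 22.5% against 18.2%). Of all tested genes, 1441 were called higher and 1215 lower in Pds5a-KO siGLO. In WT siPds5b edgeR called none of the 102, where 0.00668% of all genes were called. At an unadjusted p under 0.05 there were 3, as 4.22% of all genes passed, and DESeq2 called none either (0.0267% of all genes). Pds5a-KO siPds5b had 38 (28 higher and 10 lower, 37.3% against 32.0%), Pds5a-KO siStag1 30 (16 higher and 14 lower, 29.4% against 20.0%) and Pds5a-KO siStag2 42 (28 higher and 14 lower, 41.2% against 30.1%). The median log2 fold change over the 102 genes was 0.033 in Pds5a-KO siGLO, 0.15 in Pds5b-KO siGLO and 0.19 in Pds5a-KO siStag2.

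**Figure D5:**
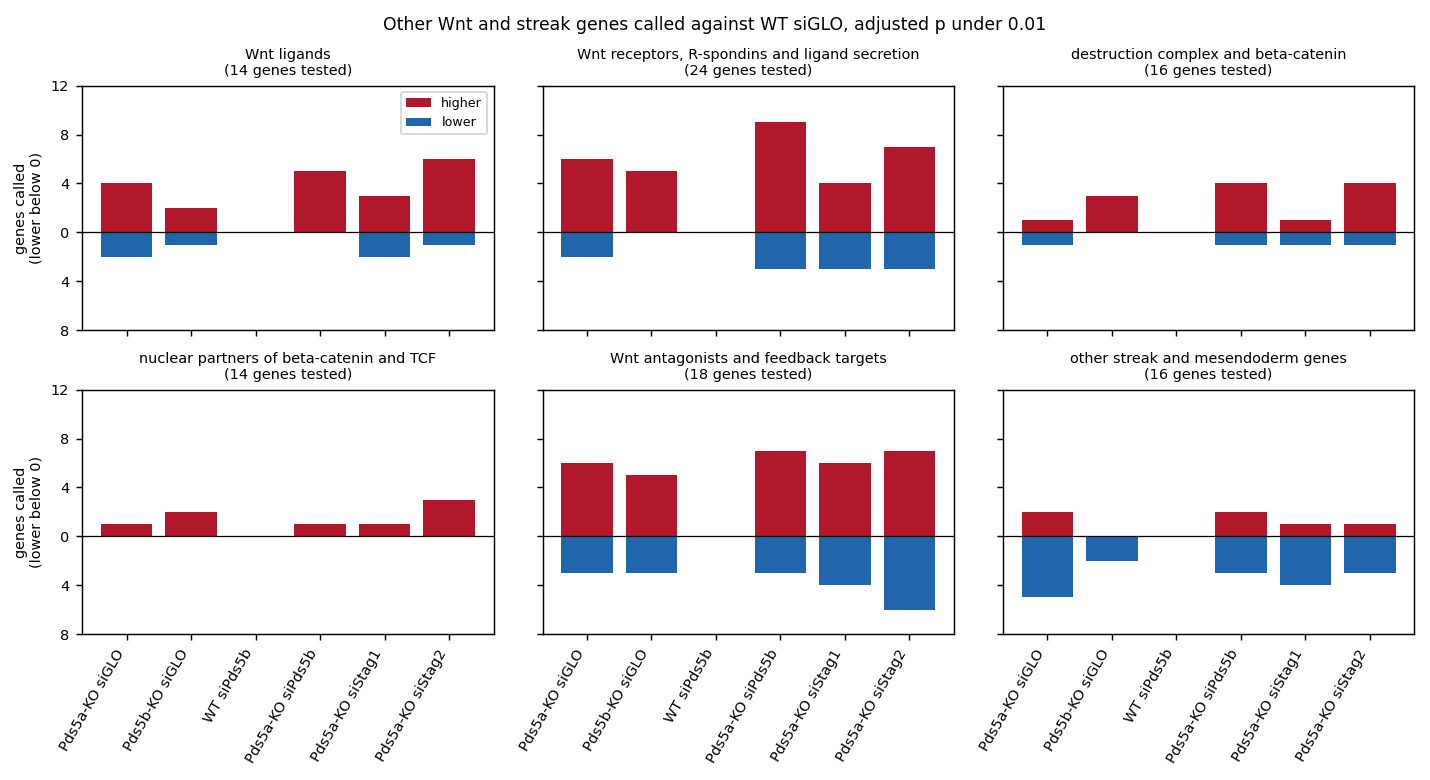
Number of genes called higher (red, above 0) and lower (blue, below 0) against WT siGLO in each condition, for 6 lists of other Wnt and streak genes, with the number tested in each title. WT siPds5b has no bar in any list, and the ligand, receptor and antagonist lists have bars in both directions in most knockout conditions.

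Other Wnt ligand genes moved in both directions. Of 14 tested, 4 higher and 2 lower were called in Pds5a-KO siGLO, 2 higher and 1 lower in Pds5b-KO siGLO, 5 higher and none lower in Pds5a-KO siPds5b, 3 higher and 2 lower in Pds5a-KO siStag1 and 6 higher and 1 lower in Pds5a-KO siStag2. Called shares were 42.9% in Pds5a-KO siGLO and 21.4% in Pds5b-KO siGLO, beside 17.8% and 18.2% of all genes. In Pds5a-KO siPds5b, siStag1 and siStag2 they were 35.7%, 35.7% and 50.0%, beside 32.0%, 20.0% and 30.1% of all genes. Wnt7b had 667 ± 202 against 57.4 ± 13.5 normalized counts in Pds5a-KO siGLO against WT siGLO (SD, n = 3 each, log2 fold change 3.53) and rose by 1.42 on the log2 scale in Pds5b-KO siGLO. Wnt7a, at 114 ± 65.3 against 9.94 ± 1.79 normalized counts, also rose in Pds5a-KO siGLO. Wnt8a, a ligand that acts near Wnt3 in the streak, fell in both knockouts, with log2 fold changes of -2.90 in Pds5a-KO siGLO and -2.34 in Pds5b-KO siGLO (adjusted p = 0.00307 and 0.0092 from edgeR). Its levels were 35.7 ± 14.4 and 52.8 ± 24.6 normalized counts there, against a widely spread 268 ± 187 in WT siGLO. Wnt9a rose in Pds5b-KO siGLO by 1.09 and in Pds5a-KO siPds5b by 2.21 on the log2 scale.

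Of 24 tested receptor, R-spondin and secretion genes, 6 higher and 2 lower were called in Pds5a-KO siGLO, 5 higher and none lower in Pds5b-KO siGLO, 9 higher and 3 lower in Pds5a-KO siPds5b, 4 higher and 3 lower in Pds5a-KO siStag1 and 7 higher and 3 lower in Pds5a-KO siStag2. Called shares were 33.3% in Pds5a-KO siGLO and 20.8% in Pds5b-KO siGLO, beside 17.8% and 18.2% of all genes. In Pds5a-KO siPds5b, siStag1 and siStag2 they were 50.0%, 29.2% and 41.7%, beside 32.0%, 20.0% and 30.1% of all genes. Rnf43, a ubiquitin ligase that removes Frizzled receptors from the membrane, rose in both knockouts (log2 fold changes 1.57 and 1.45). Fzd10 fell, with 175 ± 38.4 against 448 ± 128 normalized counts in Pds5a-KO siGLO against WT siGLO. With siPds5b added to Pds5a-KO mESCs the Frizzled genes Fzd1, Fzd8 and Fzd4 rose by 1.17, 0.97 and 0.72 on the log2 scale against Pds5a-KO siGLO. Between the knockouts, Fzd5, Fzd9 and Fzd3 were lower in Pds5a-KO than in Pds5b-KO (log2 differences -0.68, -0.63 and -0.63).

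Of the 16 destruction complex genes, 1 higher and 1 lower were called in Pds5a-KO siGLO, 3 higher and none lower in Pds5b-KO siGLO and 4 higher and 1 lower in Pds5a-KO siPds5b. The called shares, 12.5% in Pds5a-KO siGLO and 18.8% in Pds5b-KO siGLO, were below the 17.8% and near the 18.2% of all genes. In Pds5a-KO siPds5b the share was 31.25%, near the 32.0% of all genes. Csnk1e, a casein kinase that acts on Dishevelled, fell, with 804 ± 111 against 1889.8 ± 128 normalized counts in Pds5a-KO siGLO against WT siGLO (log2 fold change -1.23) and fell in the 3 other Pds5a-KO conditions, with log2 fold changes of -1.48, -1.36 and -1.04. Tnks, a tankyrase that destabilizes AXIN proteins, rose in Pds5b-KO siGLO (0.55) and was lower in Pds5a-KO than in Pds5b-KO (-0.95). Of 14 nuclear partners, 1 was called higher in Pds5a-KO siGLO, 2 in Pds5b-KO siGLO, 1 in Pds5a-KO siPds5b, 1 in Pds5a-KO siStag1 and 3 in Pds5a-KO siStag2, and none lower in any of them. These are 7.14% of the list in Pds5a-KO siGLO and 14.3% in Pds5b-KO siGLO, both below the share of all genes. In Pds5a-KO siPds5b, siStag1 and siStag2 the shares were 7.14%, 7.14% and 21.4%, below the 32.0%, 20.0% and 30.1% of all genes. Bcl9l, a co-activator that links β-catenin to the transcription machinery, rose in the 4 Pds5a-KO conditions, from a mean of 239 normalized counts in WT siGLO to 442 with siGLO, 512 with siPds5b, 413 with siStag1 and 462 with siStag2.

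Of 18 antagonists and feedback targets, 6 higher and 3 lower were called in Pds5a-KO siGLO, 5 higher and 3 lower in Pds5b-KO siGLO, 7 higher and 3 lower in Pds5a-KO siPds5b, 6 higher and 4 lower in Pds5a-KO siStag1 and 7 higher and 6 lower in Pds5a-KO siStag2. That is 50.0% of the list in Pds5a-KO siGLO and 44.4% in Pds5b-KO siGLO, where 17.8% and 18.2% of all genes were called. In Pds5a-KO siPds5b, siStag1 and siStag2 the shares were 55.6%, 55.6% and 72.2%, beside 32.0%, 20.0% and 30.1% of all genes. Cdx2 and Cdx4, paralogs of Cdx1, rose in both knockouts, whereas Cdx1 was called lower in Pds5b-KO siGLO. Cdx2 went from 9.97 ± 4.93 normalized counts in WT siGLO to 37.1 ± 6.07 in Pds5a-KO siGLO and 76.4 ± 4.49 in Pds5b-KO siGLO (SD, n = 3 each), and Cdx4 by 2.19 and 2.60 on the log2 scale. Cdx2 is also on the trophoblast list, whose summed level was also higher in both knockouts, and the part of such cells in its rise was not tested. Sp8, a paralog of Sp5, fell in Pds5a-KO siGLO (-1.99). Notum, a secreted enzyme that inactivates Wnt ligands, fell in Pds5a-KO siStag2 against WT siGLO (-1.55) and in Pds5a-KO siPds5b against Pds5a-KO siGLO (-1.15), where Nkd1, a feedback inhibitor, rose (0.77).

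Of 16 other streak and mesendoderm genes, 2 higher and 5 lower were called in Pds5a-KO siGLO, none higher and 2 lower in Pds5b-KO siGLO, 2 higher and 3 lower in Pds5a-KO siPds5b, 1 higher and 4 lower in Pds5a-KO siStag1 and 1 higher and 3 lower in Pds5a-KO siStag2. That is 43.8% of the list in Pds5a-KO siGLO and 12.5% in Pds5b-KO siGLO, beside 17.8% and 18.2% of all genes. In Pds5a-KO siPds5b, siStag1 and siStag2 the shares were 31.25%, 31.25% and 25.0%, beside 32.0%, 20.0% and 30.1% of all genes. With the replicate block 5 streak genes were called in Pds5b-KO siGLO, 1 higher and 4 lower of the 16, with 22.2% of all genes called in that fit. Tbx3, a T-box factor of mesendoderm and of naive mESCs, fell in both knockouts and further with siPds5b or siStag2 in Pds5a-KO mESCs, from 1740.1 ± 115 normalized counts in WT siGLO to 649.8 ± 125 in Pds5a-KO siGLO, 468 ± 113 in Pds5b-KO siGLO and 295 ± 40.1 in Pds5a-KO siPds5b (SD, n = 3 each). Fgf8, a growth factor of the streak, fell in the 5 knockout conditions, with log2 fold changes between -5.58 in Pds5a-KO siPds5b and -4.13 in Pds5a-KO siStag2. Its WT siGLO libraries were widely spread, at 657 ± 424 normalized counts, and the levels in those 2 conditions were low, at 13.8 ± 4.28 and 37.2 ± 8.80. Hand1, a factor of extraembryonic mesoderm that is also on the trophoblast list, rose in the 4 Pds5a-KO conditions, by 2.88 to 3.50 on the log2 scale, beside the higher trophoblast marker sum there, whose part in this was not tested.

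Over the 21 libraries, the tested genes whose log2 CPM was most like a member's included other genes of the pathway. T was most like Piezo2, Wnt8a and Rtn3 (Pearson r = 0.915, 0.896 and 0.894), and Wnt3 was most like Wnt8a, Fzd10 and Wls (r = 0.915, 0.897 and 0.886). Sp5 was nearest to Wls, which encodes the carrier that Wnt ligands need for secretion, then Zfand3 and Nat6 (r = 0.874, 0.865 and 0.848). Eomes was most like Six5, Apln and Vcan (r = 0.953, 0.949 and 0.922) and Cdx1 most like Tspan3, Sh2d4b and Smug1 (r = 0.902, 0.900 and 0.893). Tcf7l1 was nearest to Jup, the gene of γ-catenin, then Wwc1 and Myo1c (r = 0.959, 0.935 and 0.931). Tcf7 was most like Vasn, Gab2 and Sepn1 (r = 0.959, 0.955 and 0.951) and Lef1 most like Cyp2b23, Sphkap and Gpd2 (r = 0.936, 0.894 and 0.866). Axin2 was most like Plekhh1, Bcl9 and Acsl3 (r = 0.836, 0.831 and 0.829), where BCL9 is a β-catenin partner, and Mixl1, the lowest-count member, had the weakest likeness, to Sbf2, 0610030E20Rik and Lnp (r = 0.764, 0.763 and 0.707). These are descriptions over libraries that share 7 conditions and 3 replicate numbers.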

How the data were processed

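RNA-seq of 21 libraries was analysed from tables of raw gene counts, 1 per library, that the authors deposited. Per the study's methods, poly-A libraries were sequenced as paired ends and aligned to mm10 with STAR, and conditions were compared with DESeq2. The counting program, its annotation and its use of strand are not given in the sources used here. Condition and replicate number came from the sample titles. The study calls its replicates biological, and whether a replicate number marks a shared day or transfection is not given in the sources used here, so p-values measure the spread between these libraries.

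Counts were filtered with filterByExpr (14963 of 23412 genes kept), scaled by TMM and tested with the quasi-likelihood test of edgeR 4.0.16 in R 4.3.3 (robust, a mean for each of 7 conditions, 14 residual degrees of freedom), with Benjamini-Hochberg adjustment. Log2 CPM used a prior count of 2. The procedure was tested on simulated data first. Library totals of 17311090 to 23989198 counts limit precision mainly for Mixl1. The members and gene lists were chosen with earlier results of these data known. All 10 members are named. Of every other list, up to 3 called genes with the largest log2 fold change and a mean log2 CPM of at least 0 could be named in each comparison, and the 3 genes most like a member were those with the highest Pearson r of log2 CPM.

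Pairing by replicate number was checked over 11728 genes with a mean of at least 50 normalized counts. Deviations from the condition mean had a median correlation of 0.18 for same-numbered libraries (63 pairs) and -0.0927 for others (126 pairs). Every same-numbered pair was above 0.1 for Pds5b-KO siGLO and WT siPds5b against WT siGLO (lowest 0.102 and 0.352) and for siPds5b, siStag1 and siStag2 against Pds5a-KO siGLO (lowest 0.346, 0.156 and 0.141), and in those 5 comparisons the fit with the replicate block is given beside a result where it changes a member's call or moves a count by over 1.5 times.

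Alternatives were RLE and library-size scaling, DESeq2 1.42.0, no filter, at least 10 counts in every library, only the groups compared, the replicate block and leaving out each library. Leaving out all replicate 1 libraries was added after seeing the data. Positions are from GENCODE vM21 and promoter windows from RefSeq, both on GRCm38. Figures were drawn with matplotlib 3.10.9.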

Additional observations from a re-analysis of the deposited data

Results flagged for a closer look

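Both results below are interactions between the Pds5a knockout and siPds5b, found among the other pathway genes by a test of the difference itself. They are the 2 genes called of 102 tested (1.96%), near the 1.48% of all genes called, and are no result about the pathway. Fzd7, a Frizzled receptor gene, had 3247 ± 319.6 normalized counts in Pds5a-KO siPds5b, 2227 ± 254 in Pds5a-KO siGLO, 1728 ± 24.2 in WT siPds5b and 1729 ± 109 in WT siGLO (SD, n = 3 each), and the effect of siPds5b was higher in Pds5a-KO than in WT mESCs by 0.55 on the log2 scale (adjusted p = 0.0078 from edgeR). Notum, the gene of a secreted enzyme that inactivates Wnt ligands, had 102 ± 15.4, 228 ± 18.7, 456 ± 79.3 and 367 ± 26.2 normalized counts in the same order, and its difference in effect was -1.46 on the log2 scale (adjusted p = 0.000118 from edgeR).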

How the results depend on the processing

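The number of members called changed with the treatment of the replicates more than with scaling. Without the replicate 1 libraries, chosen after seeing the data, 7 members were called in Pds5a-KO siGLO, 4 in Pds5b-KO siGLO, 8 in Pds5a-KO siPds5b, 8 in Pds5a-KO siStag1 and 7 in Pds5a-KO siStag2 against WT siGLO, where 19.2%, 16.1%, 31.8%, 19.7% and 25.0% of all genes were called. In the same setting 2, 1 and 1 were called for siPds5b, siStag1 and siStag2 against Pds5a-KO siGLO (7.40%, 0.668% and 1.61% of all genes), 3 between the knockouts (18.1%), 2 between siStag2 and siStag1 (0.922%) and 1 in the interaction (1.72%). DESeq2 called 6 in Pds5a-KO siStag1 against WT siGLO (22.7% of all genes), 1 in Pds5a-KO siStag2 against Pds5a-KO siGLO (6.09%) and 1 in the interaction (2.93%). Between the knockouts none (0) was called with library-size scaling or with only the groups compared, and only the groups compared also gave 0 between siPds5b and siStag2. The cause of these shifts was not tested. RLE scaling, no filter and the stricter filter kept every count within 1.5 times. Leaving out 1 library at a time gave 2 to 3, 0 to 3, 0, 2 to 3, 3 to 6 and 3 to 4 called members in the 6 comparisons with WT siGLO (Pds5a-KO siGLO, Pds5b-KO siGLO, WT siPds5b, Pds5a-KO siPds5b, siStag1 and siStag2), 1 to 2, 0 and 0 for the 3 knockdowns against Pds5a-KO siGLO, 0 to 1 between the knockouts and between siPds5b and siStag2, and 0 between siStag2 and siStag1 and in the interaction. Lef1 changed sign in comparisons that did not call it. In Pds5a-KO siGLO against WT siGLO its log2 fold change was -0.055 and ran from -0.27 to 0.054 with 1 library left out, with 0.019, 0.031 and 0.031 without WT siGLO replicates 2 and 3 and Pds5a-KO siGLO replicate 2, and was -0.43 without the replicate 1 libraries (adjusted p = 0.00722 from edgeR). In Pds5a-KO siStag1 it was 0.055 and ran from -0.28 to 0.22, with -0.10 without WT siGLO replicate 1, and was -0.44 without the replicate 1 libraries (adjusted p = 0.00662 from edgeR).

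With the replicate number as a block, where the numbers do not pair the libraries by the rule above, 5 members were called in Pds5a-KO siGLO, 6 in Pds5a-KO siPds5b, 6 in Pds5a-KO siStag1 and 6 in Pds5a-KO siStag2 against WT siGLO, 2 between the knockouts and 1 in the interaction, where 21.2%, 36.0%, 23.5%, 33.7%, 23.7% and 2.60% of all genes were called, with T, Wnt3, Cdx1, Tcf7 or Lef1 among those added. In the paired comparisons it gave 4 in Pds5b-KO siGLO against WT siGLO and 2, 1 and 1 for siPds5b, siStag1 and siStag2 against Pds5a-KO siGLO, and it changed no call in WT siPds5b.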
